A study of Mus musculus with 6 samples.

Results

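The genes described here build the DNA replication machinery and supply its nucleotides: 42 genes chosen by symbol for their roles in replication licensing, helicase activation, polymerases, the sliding clamp, nucleotide synthesis and chromatin assembly. They were measured in primary mouse lung fibroblast cultures on Affymetrix arrays, and 41 of the 42 had a probe set that carried their symbol alone, out of 22180 genes named in this way. The exception was Rfc4, whose probe set carried more than 1 symbol and was not used. For a gene with more than 1 probe set, the brightest on average was taken. The 42 genes were chosen with earlier results of these data known, so their counts beside all genes are descriptive. All cultures came from wild-type male C57BL/6 mice aged 8 weeks. The cells were enriched from digested whole lung, grown in medium with serum and passaged at most 3 times. The groups were 3 wells kept with vehicle and 3 wells kept with purmorphamine for 24 h; its dose, 5um in the labels, was taken to mean 5 µM. Purmorphamine is an agonist of Smoothened, which relays Hedgehog signals to the Gli transcription factors. The labels describe cells split over wells and do not say from how many mice or pools, so the p-values here rest on well-to-well spread alone and that spread may be technical.

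Before a cell copies its DNA, the origin recognition complex, Cdc6 and Cdt1 load the ring-shaped helicase made of Mcm2 to Mcm7 onto origins, a step called licensing. Cdc45 and the GINS complex then activate the helicase, polymerases alpha, epsilon and delta copy the strands, and the Pcna clamp, placed by the Rfc loader, holds polymerases on DNA. Many of these genes are transcribed as cells pass from rest into S phase, under E2F factors that are held in check by the retinoblastoma family of pocket proteins.

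Of the 41 genes measured, 40 fell under purmorphamine and 0 rose, at a limma adjusted p under 0.05, whereas 7.16% of all genes tested fell and 7.18% rose. All 41 differences were below 0, with a median of -0.56 on the log2 scale, a 1.47-fold lower level, against -0.01 over all genes tested. The falls were of moderate size: 19 genes passed the test and were at least 1.5-fold lower, as were 1.4% of all genes, and 1 gene, Mcm5, was at least 2-fold lower. In 40 genes every purmorphamine array lay below every vehicle array, which held for 17.1% of all genes tested. Among all 22180 genes ordered from the largest fall, 3 of the 41 stood within the first 100 and 29 within the first 500. These are changes of whole cultures, in which fewer cells of a replicating type and less of these RNAs per cell cannot be told apart.

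The arrays were similar in overall level, with medians of 6.34 to 6.39 on the log2 scale. Replicate 3 of both groups lay apart from the other arrays on the second principal component of all genes, which held 13.2% of the variance. Without both of these arrays, 27 of the 41 genes fell and 0 rose, while 511 of all 22180 genes fell. Members that lost their call were Dut, E2f1, E2f2, Fen1, Gins1, Gins3, Orc1, Orc6, Pcna, Rfc3, Rfc5, Rpa1 and Tyms. With any single array left out 36 to 38 of the 41 fell, and 1057 to 1206 of all genes. The deviation of each gene from its vehicle mean had a median of 0.02, -0.01 and 0.01 on vehicle arrays 1, 2 and 3 and of -0.49, -0.59 and -0.65 on purmorphamine arrays 1, 2 and 3. Purmorphamine array 3 was the lowest of its group in 25 of the 41 genes, as it was in 35.1% of all genes. The Hedgehog targets Gli1, Ptch1 and Hhip differed by -0.12, 0.17 and 0.06 on the log2 scale and did not pass the test.

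Markers of several cell types were present in these cultures, and some of them moved with the treatment. Of 10 fibroblast markers 8 rose and 1 fell, and the log2 of their summed signal was 14.84 to 14.89 on vehicle arrays and 15.06 to 15.13 on purmorphamine arrays. Of the 8 that rose, Lum and Col1a1 lost their call in 6 and 4 of the 6 fits with 1 array left out. Of 12 macrophage markers 4 fell and 1 rose, with summed signals of 15.98 on the lowest and the highest vehicle array and 15.86 to 15.91 on purmorphamine arrays. Among them Itgam fell by 1.46, Csf1r by 0.63, Mrc1 by 0.62 and Adgre1 by 0.37, while Itgax rose by 0.31. The other 7 did not pass, and of these Marco (0.20), Cd14 (0.19), Cd68 (0.13) and Lyz2 (0.05) were higher on every purmorphamine array, so that 5 of the 12 were higher and 4 lower on every such array. Of 6 endothelial markers 3 rose and 0 fell (11.90 to 12.00 against 12.11 to 12.18), of 6 epithelial markers 1 rose (11.39 to 11.41 against 11.43 to 11.46), and of 6 smooth muscle markers 4 fell. Among these Acta2, Cnn1 and Lmod1 lost their call in 6, 5 and 6 of the 6 fits with 1 array left out, and so did the endothelial marker Cdh5 in 2. Of the 5 T and B lymphocyte markers measured 0 passed the test with limma (2 were lower at an unadjusted p under 0.05), and their mean level of 5.58 to 5.75 on vehicle arrays lay under the array medians. The lung epithelial markers Sftpc, Sftpb and Scgb1a1 averaged 6.40, 6.35 and 4.24 on vehicle arrays, near or under those medians. The part of the cell type markers in the falls of the replication genes was not tested.

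**Figure D1:**
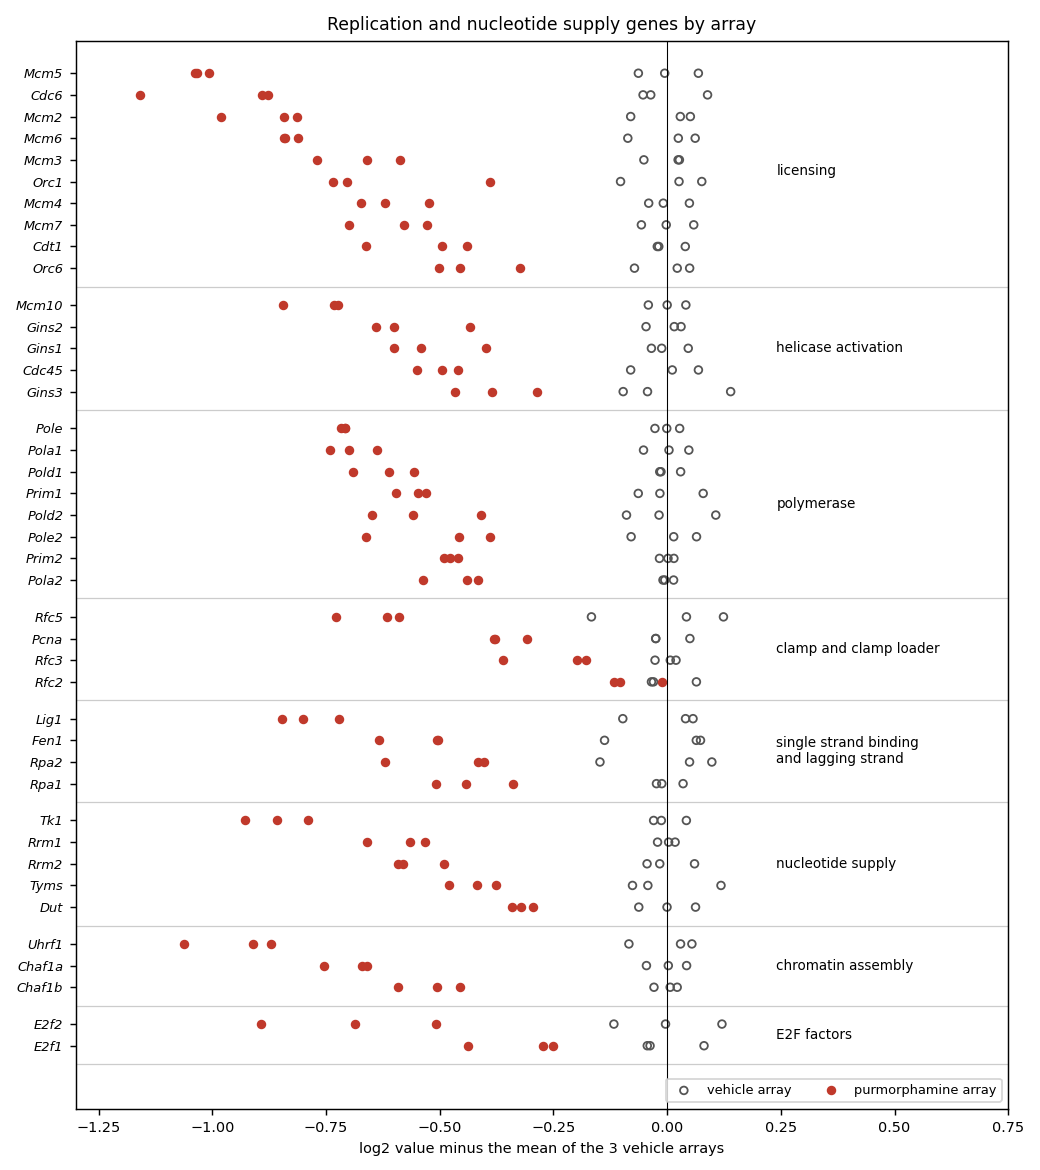
Log2 value of each gene on each array minus the mean of its 3 vehicle arrays (horizontal axis), with genes grouped by role and ordered by their difference. Open circles are vehicle arrays and filled circles purmorphamine arrays; the groups are apart in 40 of 41 genes, and Rfc2 is the gene whose arrays overlap.

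The windows around the starts of the 6 genes that fell furthest, taken from the RefSeq promoter table (build GRCm38.p6), are shown. These genes were chosen by the size of their fall, whatever letters that E2F and NF-Y recognise they hold. Each runs 5′ to 3′ in the direction of its gene, from 250 bases before the first base of the gene to 50 from it onward. Capitals mark matches on either strand to the E2F letters (TTTCCCGC, TTTCGCGC, TTTGCCGC or TTTGGCGC) or to the NF-Y letters (CCAAT).
Mcm5 (chr8:75109259-75109558, plus strand): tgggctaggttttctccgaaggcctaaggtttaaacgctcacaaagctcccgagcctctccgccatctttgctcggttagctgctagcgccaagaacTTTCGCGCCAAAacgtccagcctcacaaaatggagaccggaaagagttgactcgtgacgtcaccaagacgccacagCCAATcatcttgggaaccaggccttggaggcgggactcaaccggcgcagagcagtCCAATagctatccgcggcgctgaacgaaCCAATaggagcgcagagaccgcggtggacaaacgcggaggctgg
Cdc6 (chr11:98907901-98908200, plus strand): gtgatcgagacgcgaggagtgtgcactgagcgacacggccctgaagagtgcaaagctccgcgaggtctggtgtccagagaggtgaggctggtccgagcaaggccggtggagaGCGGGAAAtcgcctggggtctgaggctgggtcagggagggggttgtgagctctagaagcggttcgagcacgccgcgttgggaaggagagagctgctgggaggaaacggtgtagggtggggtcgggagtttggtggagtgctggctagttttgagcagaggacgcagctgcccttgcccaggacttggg
Uhrf1 (chr17:56304063-56304362, plus strand): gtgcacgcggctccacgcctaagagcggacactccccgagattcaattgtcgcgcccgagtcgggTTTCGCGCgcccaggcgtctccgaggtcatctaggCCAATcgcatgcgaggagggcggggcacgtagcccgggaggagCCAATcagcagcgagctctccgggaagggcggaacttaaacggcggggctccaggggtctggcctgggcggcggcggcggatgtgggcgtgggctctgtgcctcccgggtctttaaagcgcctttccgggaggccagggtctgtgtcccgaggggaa
Mcm2 (chr6:88898731-88899030, minus strand): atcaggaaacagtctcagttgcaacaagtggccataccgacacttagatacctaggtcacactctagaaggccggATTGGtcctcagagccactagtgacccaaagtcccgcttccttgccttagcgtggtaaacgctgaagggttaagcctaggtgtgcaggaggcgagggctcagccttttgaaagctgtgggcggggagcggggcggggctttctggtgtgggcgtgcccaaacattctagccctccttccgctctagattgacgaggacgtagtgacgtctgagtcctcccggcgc
Tk1 (chr11:117825965-117826264, minus strand): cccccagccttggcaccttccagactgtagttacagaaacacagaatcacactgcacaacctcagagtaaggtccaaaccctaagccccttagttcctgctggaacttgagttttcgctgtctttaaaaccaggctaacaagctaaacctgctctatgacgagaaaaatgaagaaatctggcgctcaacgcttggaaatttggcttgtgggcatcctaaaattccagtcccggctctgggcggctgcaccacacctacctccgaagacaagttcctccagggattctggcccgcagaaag
Mcm6 (chr1:128359656-128359955, minus strand): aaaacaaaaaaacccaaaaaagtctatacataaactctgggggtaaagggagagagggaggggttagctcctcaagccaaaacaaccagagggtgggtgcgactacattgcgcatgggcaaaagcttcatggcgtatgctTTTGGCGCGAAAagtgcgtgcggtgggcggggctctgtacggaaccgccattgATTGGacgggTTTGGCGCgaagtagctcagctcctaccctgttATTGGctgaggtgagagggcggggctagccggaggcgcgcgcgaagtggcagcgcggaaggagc

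In Mcm5 the first capital run holds 2 E2F matches on opposite strands that share bases, at positions -153 to -142 from the gene's first base, and 3 NF-Y matches follow it. Mcm6 holds the same kind of paired E2F match, at -110 to -99, and another E2F match between 2 NF-Y matches. Cdc6 and the Uhrf1 window shown hold 1 E2F match each. Uhrf1 has 2 windows in the table, of which the one with more E2F matches is shown, and the other holds 0 E2F and 3 NF-Y matches. The windows of Mcm2, with 1 NF-Y match, and Tk1, with neither motif, hold none of these E2F letters. No match says only that these letters are not in this window.

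**Figure D2:**
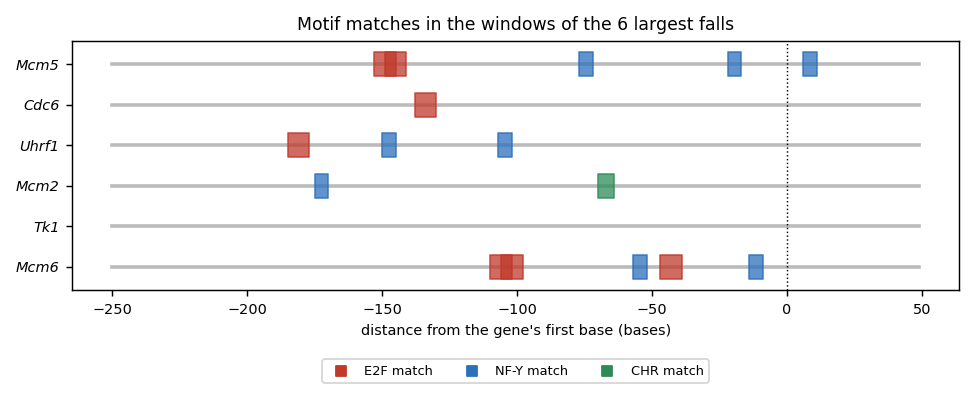
Position of each motif match in the 6 windows, in bases from the first base of the gene (dotted line), with E2F, NF-Y and CHR matches in different colours and grey lines for the windows. E2F matches stand between -185 and -40 in 4 of the 6 genes, and Tk1 has no match.

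Of the 41 genes, 35 had at least 1 window, and a gene was counted as holding a motif if any of its windows did. E2F letters stood in 15 of the 35 (42.9%, 95% Wilson interval 28.0 to 59.1), in 22.9% of 83 other replication genes with a window, in 3.26% of the 16990 tested genes with a window and in 2.26% of all 32851 windows of the same length. With the bases before the start alone, 9 of the 35 (25.7%) held them, against 2.70% of tested genes. NF-Y letters stood in 22 of the 35 (62.9%), against 41.6% of tested genes and 37.4% of all windows. The letters TTTGAA, read by complexes at the cell cycle homology region (CHR) of mitotic genes, stood in 6 of the 35 (17.1%), against 17.8% of tested genes and 17.9% of all windows. Windows of these genes were richer in G and C, with a median of 59.3% against 52.8% over all genes in the table, and the part of base composition in these shares was not tested. The median difference was -0.67 in the 15 genes with E2F letters and -0.53 in the 20 without, and all 35 fell. Outside the replication genes, 57 of 520 tested genes with E2F letters fell (11.0%) and 30 rose (5.77%), while of 16352 genes without them 1145 fell and 1192 rose (7.29%).

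All 10 licensing genes fell, with a median of -0.64 and 8 of them at least 1.5-fold lower. Mcm5, a subunit of the helicase ring, read 10.51, 10.43 and 10.38 on the vehicle arrays and 9.43, 9.40 and 9.40 on the purmorphamine arrays. The purmorphamine arrays lay close together and nearly a full log2 unit below the lowest vehicle array. This was a difference of -1.03 (SE 0.06, 95% interval -1.16 to -0.90, limma adjusted p = 0.00012, n = 3 per group), a 2.04-fold lower level and rank 70 of all genes. Cdc6, the loader that brings the helicase to origins, read 8.56, 8.58 and 8.70 with vehicle and 7.74, 7.72 and 7.45 with purmorphamine. Its arrays were apart, with purmorphamine array 3 the lowest, and the difference was -0.98 (SE 0.09, adjusted p = 0.00088), 1.97-fold. The other ring subunits fell too: Mcm2 by 0.88, Mcm6 by 0.83, Mcm3 by 0.67, Mcm4 by 0.61 and Mcm7 by 0.60, so that all 6 subunits were at least 1.5-fold lower.

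The origin recognition genes among the 10 were Orc1, the subunit whose protein level follows the cell cycle in mammalian cells, and Orc6. Orc1 read 7.39, 7.26 and 7.44 with vehicle and 6.97, 6.66 and 6.63 with purmorphamine. Purmorphamine array 1 lay above the other treated arrays, and the difference of -0.61 had a wide 95% interval of -0.85 to -0.37. Orc6, with the smallest fall of the class, read 9.60, 9.48 and 9.57 against 9.09, 9.22 and 9.05, which did not overlap and differed by -0.43 (limma adjusted p = 0.0069). Cdt1, the second loading factor, fell by 0.53. Its inhibitor geminin, Gmnn, fell by 0.45. The remaining subunits of the origin recognition complex gave smaller or opposite values: Orc2 fell by 0.27 but lost its call with any array but purmorphamine replicate 1 left out (limma adjusted p from 0.068 to 0.089), and Orc3, Orc4 and Orc5, at 0.05, 0.09 and 0.16, did not pass. Orc1 minus Orc4, a pair chosen after its values were seen and taken within each array, was lower by 0.70 under purmorphamine with no overlap. The exact two-sided permutation p of 0.10 is the smallest that 3 arrays against 3 allow.

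All 5 helicase activation genes fell, with a median of -0.51. Mcm10, which helps to turn the loaded helicase into an active one, read 8.50, 8.54 and 8.58 with vehicle and 7.81, 7.80 and 7.69 with purmorphamine. The spread within either group was small beside the difference of -0.77 (SE 0.06, limma adjusted p = 0.00045), a 1.70-fold lower level. Gins2, Gins1 and Cdc45 fell by 0.56, 0.51 and 0.50. Gins3, another subunit of the GINS complex, read 8.54, 8.72 and 8.49 with vehicle and 8.12, 8.20 and 8.30 with purmorphamine. Its groups were apart but its difference of -0.38 was the smallest of the class, and the call was lost without replicate 1 or 2 of either group (limma adjusted p from 0.055 to 0.079). The fourth GINS subunit, Gins4, differed by -0.11 and did not pass.

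The 8 polymerase genes all fell, within a narrow range of -0.71 to -0.46. Pole, the catalytic subunit of the leading strand polymerase epsilon, read 8.92, 8.95 and 8.90 with vehicle and 8.22, 8.21 and 8.22 with purmorphamine. Both groups were tight, and the difference of -0.71 had an SE of 0.05 (limma adjusted p = 3.0e-04). A dimmer probe set of Pole differed by -0.06 and did not pass. Pola1, the catalytic subunit of polymerase alpha, fell by 0.69, and Pold1, that of polymerase delta, by 0.62. The primase genes Prim1 and Prim2, whose products lay down the RNA primers, fell by 0.56 and 0.48. Pola2, the accessory subunit of polymerase alpha and the smallest fall of the class, read 9.68, 9.68 and 9.70 against 9.25, 9.27 and 9.15. With a difference of -0.46, all 4 genes of the alpha and primase complex had passed the test. The catalytic and second subunits of polymerases delta and epsilon also fell (Pold2 by 0.54, Pole2 by 0.50), while their small subunits Pold3, Pold4, Pole3 and Pole4, at -0.15, 0.05, -0.04 and -0.09, did not pass. Within arrays, Pole minus Pole3 was lower by 0.67 and Pold1 minus Pold4 by 0.67, each with no overlap. The exact permutation p of 0.10 for each is the smallest possible. Both pairs were chosen after their values were seen, so their separation is not an independent test.

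Of the 4 clamp and clamp loader genes measured 3 fell, with the smallest class median, -0.30. Pcna, the sliding clamp, read 11.65, 11.57 and 11.57 with vehicle and 11.22, 11.22 and 11.29 with purmorphamine. The groups were apart by more than their spread, at a difference of -0.36 (SE 0.05, limma adjusted p = 0.0056), 1.28-fold. Rfc5, a small subunit of the loader, had the largest fall of the class: it read 8.94, 8.65 and 8.86 with vehicle and 8.20, 8.23 and 8.09 with purmorphamine, a difference of -0.65. Rfc2, another small subunit, read 8.92, 8.83 and 8.82 against 8.85, 8.76 and 8.74. Its groups overlapped, and the difference of -0.08 (95% interval -0.21 to 0.06, limma adjusted p = 0.45) made it the 1 gene of the 41 that did not pass, with a lower limit well short of the median fall. Rfc3 fell by 0.25 at an adjusted p of 0.046 and lost its call with any 1 of the 6 arrays left out (0.070 to 0.121). The large loader subunit Rfc1 differed by -0.01. Rfc5 minus Rfc2 within arrays was lower by 0.57 (SE 0.08 from the 6 arrays alone, exact permutation p = 0.10, the smallest possible). This pair, the largest and smallest falls of the class, was chosen after its values were seen, so its separation is not an independent test.

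All 4 genes of single strand binding and of the lagging strand fell, with a median of -0.51. Lig1, the ligase that seals Okazaki fragments, read 9.22, 9.09 and 9.24 with vehicle and 8.46, 8.34 and 8.38 with purmorphamine. This was the largest fall of the class, at -0.79 (SE 0.07, limma adjusted p = 0.00062), 1.73-fold. Fen1, the nuclease that trims the flaps before ligation, fell by 0.55, while its dimmer probe set differed by -0.03 and did not pass. Rpa2 and Rpa1, subunits of the protein that coats single strands, fell by 0.48 and 0.43. Rpa1, the smallest fall of the class, read 10.30, 10.31 and 10.36 against 9.98, 9.81 and 9.88. Rpa2 lost its call without vehicle replicate 1 or vehicle replicate 2 (adjusted p of 0.051 and 0.052). The smallest RPA gene, Rpa3, was measured imprecisely, at 0.10 (95% interval -0.23 to 0.44).

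All 5 nucleotide supply genes fell, with a median of -0.55. Tk1, the cytosolic thymidine kinase of proliferating cells, read 9.67, 9.68 and 9.74 with vehicle and 8.91, 8.77 and 8.84 with purmorphamine. The difference of -0.86 (SE 0.06, limma adjusted p = 2.9e-04), 1.81-fold, was the largest of the class. Rrm1 and Rrm2, the large and small subunits of the ribonucleotide reductase that makes deoxynucleotides, fell by 0.59 and 0.55, and thymidylate synthase, Tyms, fell by 0.42. Dut, the enzyme that removes dUTP, read 8.87, 8.93 and 8.99 with vehicle and 8.61, 8.63 and 8.59 with purmorphamine, a difference of -0.32. Its dimmer probe set went the other way, at 5.55, 5.62 and 5.46 with vehicle and 5.73, 5.91 and 5.72 with purmorphamine. That difference of 0.25 did not pass with every probe set tested separately (adjusted p = 0.075), and Dut lost its call when its probe sets were averaged.

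Enzymes with the same chemistry outside S phase were measured too. The alternative small reductase subunit Rrm2b, which serves DNA repair and resting cells, differed by 0.06 (95% interval -0.06 to 0.17), and the mitochondrial kinases Tk2 and Dguok by 0.21 and 0.12, none of which passed the test with limma. Relative to the vehicle mean, Rrm2 minus Rrm2b was 0.06, -0.04 and -0.02 on the vehicle arrays and -0.57, -0.62 and -0.65 on the purmorphamine arrays. The groups were far apart, at a difference of -0.61 (SE 0.04), and Tk1 minus Tk2 differed by -1.07 (SE 0.11), with both SEs from the 6 arrays alone. Both pairs were chosen after their values were seen. Of 7 other deoxynucleotide genes 4 fell and 0 rose: the deoxycytidine kinase gene Dck by 0.64, the thymidylate kinase gene Dtymk by 0.39, Dctd by 0.31 and Samhd1, which encodes a deoxynucleotide hydrolase, by 0.31.

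The 3 chromatin assembly genes fell, with a median of -0.70. Uhrf1, which brings the maintenance DNA methyltransferase to newly copied DNA, read 9.23, 9.34 and 9.36 with vehicle and 8.40, 8.44 and 8.25 with purmorphamine. The difference of -0.95 (SE 0.07, limma adjusted p = 0.00045), 1.93-fold, stood at rank 90 of all genes. Chaf1a and Chaf1b, the subunits of the histone chaperone CAF-1 that are particular to it, fell by 0.70 and 0.52, and Chaf1b, the smaller fall, read 9.67, 9.61 and 9.65 against 9.19, 9.05 and 9.14. The third CAF-1 subunit, Rbbp4, which also serves other complexes, differed by -0.06 and did not pass, and Chaf1a minus Rbbp4 was lower by 0.64 within arrays. Of 8 other genes of replication-coupled chromatin 6 fell and 0 rose. Among those that fell, Nasp and Rbbp7 lost their call in 5 and 4 of the 6 fits with 1 array left out. Asf1b, a histone chaperone, fell 1.99-fold. The remodeler gene Hells fell by 0.65, Hat1 by 0.41 and the methyltransferase gene Dnmt1 by 0.40. The paralog Asf1a differed by 0.04, and Asf1b minus Asf1a by -1.04 (SE 0.02 from the 6 arrays alone), with the groups apart. That pair and Chaf1a with Rbbp4 were chosen after their values were seen.

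Both E2F genes fell. E2f2 read 7.56, 7.44 and 7.32 with vehicle and 6.93, 6.55 and 6.75 with purmorphamine, and its spread was among the widest of the 41, with a difference of -0.70 (SE 0.11, limma adjusted p = 0.0066). E2f1 read 8.96, 8.83 and 8.84 against 8.62, 8.60 and 8.44, a difference of -0.32. The call for E2f1 was lost with each array but purmorphamine replicate 1 left out (0.054 to 0.080). Of 16 other E2F, pocket protein and DREAM genes 8 fell and 1 rose, and 5 fell without vehicle replicate 1, vehicle replicate 3 or purmorphamine replicate 3. The largest falls were those of Mybl2, a cell cycle activator, and E2f8, a repressor of the E2F family, at -1.03 each, followed by E2f7, a further repressor, at -0.64 and the pocket protein gene Rbl1 at -0.51. E2f3 and E2f5 differed by -0.06 and -0.05 and did not pass. Rb1 rose by 0.20, at an adjusted p of 0.049 that became 0.073 to 0.138 with any 1 of the 6 arrays left out, and Rbl2, at 0.14, did not pass.

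**Figure D3:**
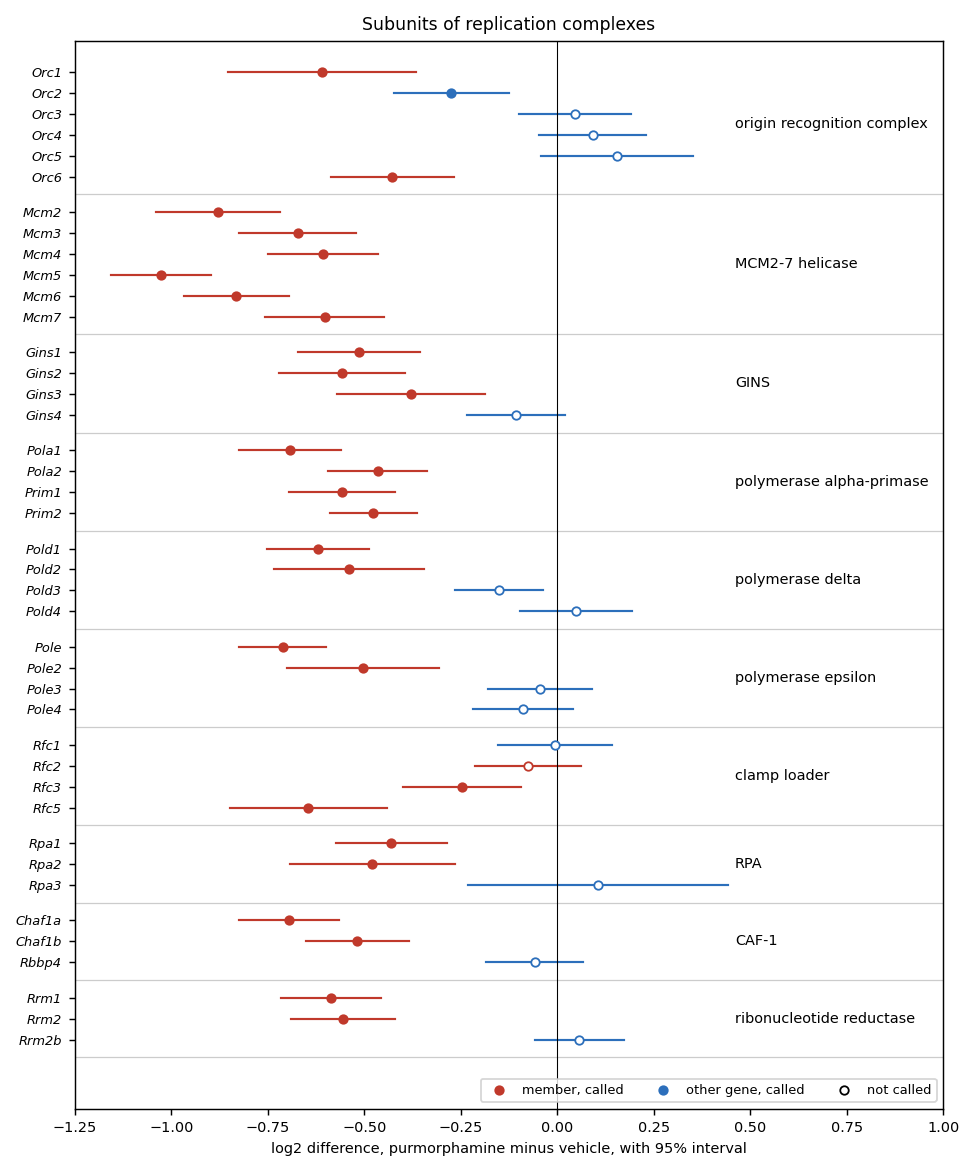
Log2 difference, purmorphamine minus vehicle, with its 95% interval from limma for each measured subunit of 10 complexes. Red marks genes of the set described here, blue other genes, and open symbols genes that did not pass; all 6 helicase subunits lie left of -0.60, while Orc3, Orc4, Orc5, Pold4, Rpa3 and Rrm2b lie right of 0.

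The plot of complexes sets the subunits side by side. All 6 genes of the helicase ring and all 4 of polymerase alpha and primase fell, against 3 of 6 of the origin recognition complex, 3 of 4 of GINS, 2 of 4 each of polymerase delta and polymerase epsilon, 2 of 4 measured clamp loader genes, and 2 of 3 each of RPA, CAF-1 and ribonucleotide reductase. The 41 genes had been picked for their link to replication with earlier results of these data known, so a subunit outside the set is not an independent control for one within it. In each of the 8 pairs of subunits or paralogs set against each other, chosen after their values were seen, the within-array difference was lower on every purmorphamine array. The exact two-sided p was 0.10 in each, also after Benjamini-Hochberg adjustment over the 16 pairs tested in all.

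Beyond the 41, 101 other genes of replication and nucleotide metabolism were measured, of which 49 fell and 4 rose, with a median of -0.23. With both replicates 3 left out 18 fell and 1 rose, and 2 rose with any single array but purmorphamine replicate 2 left out. Among 11 origin firing genes 8 fell and 0 rose, and 5 fell with any 1 vehicle array left out. Those with the smallest p were Cdk2 (-0.60), the kinase gene Cdc7 (-0.58), cyclin A2, Ccna2 (-0.58) and Ticrr (-0.45), and Ccne1, named after its value was seen, fell by 0.52. Of 19 other fork genes 9 fell and 0 rose, and 5 fell without purmorphamine replicate 2. Wdhd1, which ties the polymerase alpha complex to the helicase, fell by 0.82, the nuclease gene Dna2 by 0.63, the checkpoint mediator gene Clspn by 0.56 and the Pcna partner gene Pclaf by 0.68. Of 10 other origin and licensing genes 2 fell and 0 rose (Gmnn and Orc2, the latter not called with any array but purmorphamine replicate 1 left out), and the helicase paralogs Mcm8 and Mcm9, at -0.24 and -0.09, were among those that did not pass.

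Of 14 genes of purine and pyrimidine synthesis 8 fell and 0 rose, with a median of -0.23, and 5 fell with any 1 vehicle array or purmorphamine replicate 2 left out, or with the replicate number as a block. Ppat, the first enzyme of purine synthesis, fell by 0.52, Atic by 0.47, Umps by 0.39 and Gart by 0.36. In the folate cycle Shmt1 and Mthfd1 fell by 0.56 and 0.34, and Mthfd2, the mitochondrial enzyme known as a target of the stress factor ATF4, rose by 0.61 (SE 0.07, limma adjusted p = 0.0023). The mitochondrial Shmt2 and Mthfd1l differed by 0.06 and 0.05 and did not pass. Of 11 repair, translesion and mitochondrial polymerases 2 fell and 2 rose, with a median of 0.07. Polq and Polh fell by 0.71 and 0.30, and Rev3l and Polk rose by 0.35 and 0.24. Polh lost its call without vehicle replicate 1, vehicle replicate 3 or purmorphamine replicate 3, and Polk with any array but purmorphamine replicate 2 left out. Polb and Polg, at 0.15 and -0.26, did not pass.

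**Figure D4:**
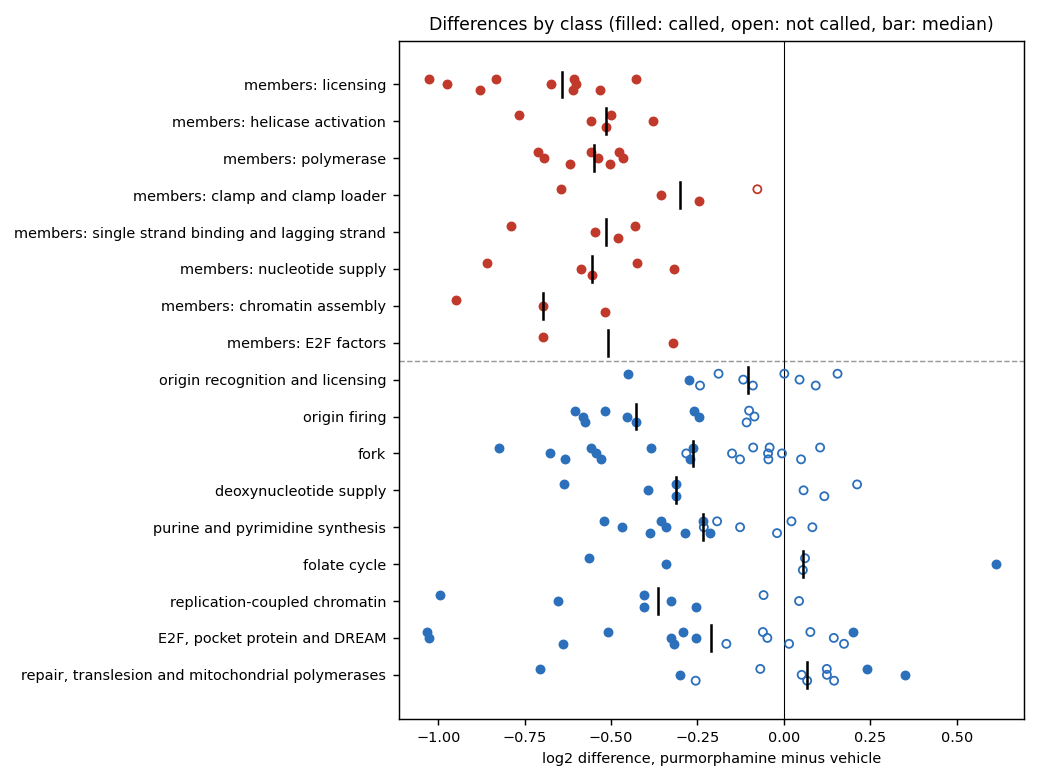
Log2 difference, purmorphamine minus vehicle, of each gene (points) by class, with the 41 genes in red above the dashed line and other replication genes in blue below it; filled points passed the test, open points did not, and black bars are medians. Class medians of the 41 lie between -0.70 and -0.30, and those of the other lists between -0.43 and 0.07.

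Genes that start beside a replication gene gave a comparison at the level of the locus. Only the 35 of the 41 genes with a window could be searched, and the other 6 were not assessed. In the RefSeq table, 8 of the 35 had a gene with a window starting within 1000 bases on the other strand. Of these pairs 6 were arranged back to back. Of these 8 neighbours 0 fell and 1 rose with limma (0 lower and 2 higher at an unadjusted p under 0.05). Among all genes tested 7.16% fell and 7.18% rose, and 8 genes are too few to tell their counts from these shares. The differences of the neighbours ran from -0.15 to 0.34. Mcm7 and Ap4m1, an adaptor complex gene that starts 138 bases away, differed by -0.60 and -0.01. Orc1 and the splicing gene Prpf38a, 118 bases apart, differed by -0.61 and -0.07, and Lig1 and Zswim9, 105 bases apart, by -0.79 and 0.08. Rpa1 and Smyd4, 50 bases apart, differed by -0.43 and 0.03, and Cdc45 and Ufd1, 322 bases apart, by -0.50 and 0.14. Rfc5 and Gm15728, 99 bases apart, differed by -0.65 and -0.15, and Gm15728 was the 1 neighbour that was also lower on every purmorphamine array. In all 8 pairs, tested with their values known, the replication gene minus its neighbour was lower on every purmorphamine array than on any vehicle array, by between -0.89 and -0.46, with an exact two-sided permutation p of 0.10, the smallest possible. Tmem258, which starts 191 bases from Fen1 in an overlapping arrangement, was the neighbour that rose, by 0.34, and lost its call with any array but vehicle replicate 1 left out (0.058 to 0.106). Afmid, which overlaps Tk1, differed by -0.04.

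Other probe sets of the same gene were on the arrays for 5 of the 41, and all were dimmer than the ones used. Those of Rpa1 and Rrm2 also fell, by 0.35 and 0.43, with every probe set tested separately. Those of Fen1 and Pole differed by -0.03 and -0.06 and did not pass. For Fen1 the probe set used read 8.03, 7.82 and 8.02 with vehicle and 7.45, 7.32 and 7.45 with purmorphamine, and the dimmer one read 6.67, 6.40 and 6.68 against 6.38, 6.68 and 6.61, with overlapping groups. Averaging its probe sets cost Fen1 its call. The dimmer probe set of Pole read 5.48, 5.87 and 5.93 with vehicle and 5.64, 5.68 and 5.77 with purmorphamine, also with overlapping groups.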

How the data were processed

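RNA of 6 wells, 3 with vehicle and 3 with purmorphamine, was measured on 1 array each. Each array received material amplified from 100 ng of RNA, per the labels' protocols. The deposited table holds the authors' log2 expression of each probe set on each array. The submitters' processing notes name oligo, RMA and limma, with versions not given in the sources used here. Quantile normalization within RMA removes any shift shared by all genes, and dim probe sets show compressed changes. Precision is limited by the number of arrays, with a median SE of 0.07 for a difference.

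Of 41345 probe sets, 23521 had 1 gene symbol in the platform annotation, 1814 had several and 16010 had none. Identifiers of 23328 matched RefSeq (GRCm38.p6), and 0 symbols were updated. Purmorphamine minus vehicle was fitted over all 22180 genes in R 4.3.3 with limma 3.58.1 (lmFit, eBayes), without a block or a filter, with two-sided p-values adjusted by Benjamini-Hochberg over that whole table. Calls use an adjusted p under 0.05. For differences between paired genes within arrays, the SE came from the 6 arrays alone, without limma's sharing of variance between genes. Such an SE can lie under limma's SE of either gene, as for Asf1b and Asf1a (0.05 each). The fit was tested on simulated arrays of the same 22180 genes for this comparison, where 100% of genes changed by 1 log2 unit and 83% of those changed by 0.5 were recovered, and 6 of 189 calls were false. The simulation changed 100 genes by each size and drew independent noise for each gene, without replicate structure. These rates may therefore not hold for the real arrays. Same-numbered arrays of the groups deviated together with correlations of 0.11, 0.02 and 0.10 across genes. Differently numbered arrays gave lower values, of -0.09 to -0.01, so some structure shared by replicate number is possible. As all values were small, the main fit did not pair the wells, and a fit with the replicate number as a block is given below.

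The members and lists were chosen with earlier results of these data known. All members may be named. Values on all arrays are given for the members of largest and smallest change in each class and for members whose probe sets disagree, and from each other list at most 4 called genes of smallest p and genes that moved against the rest. Further genes, mainly subunits and paralogs of members, were named after their values were seen. Plots were drawn with matplotlib 3.10.9 in Python 3.11.15.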

Additional observations from a re-analysis of the deposited data

How the results depend on the processing

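The 41 replication genes kept their direction in all 15 alternative fits: arrays centred on their medians or quantile normalized, 50 added on the linear scale, dim genes dropped, probe sets averaged, a trended and robust eBayes, weighted arrays, a replicate block, single arrays dropped in turn and, chosen after seeing the data, both replicates 3 dropped. Of 615 values, 582 stayed on the same side of the threshold and 33 lost their call, and 26 genes were called in all of them. With the replicate block 39 of 41 fell, and Rfc3 alone lost its call. With it 42 other replication genes fell and 2 rose, against 49 and 4 without, and 5 genes of purine and pyrimidine synthesis fell, against 8. Slide and scan date are not given in the value table.

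At least 1.5-fold lower were 19 of the 41, and 311 of all genes that fell (525 that changed). With single arrays dropped, which leaves fewer samples, 1967 to 2374 of all genes changed (2034 and 2110 without vehicle replicates 2 and 3, 1967 and 2065 without purmorphamine replicates 1 and 3) and 1057 to 1206 fell (1057 without purmorphamine replicate 3), against 3181 and 1588 with all arrays. Without both replicates 3 the counts were 951 and 511, and 18 other replication genes fell. The offset of 50, which shrinks differences by construction, gave medians of -0.50 for all 41 genes, -0.42 for helicase activation, -0.49 for polymerases, -0.43 for single strand binding and the lagging strand, -0.58 for chromatin assembly and -0.40 for the E2F genes. The mean of probe sets gave -0.43 for single strand binding and the lagging strand and -0.49 for nucleotide supply. Leaving out 1 array gave -0.72 to -0.61 for licensing and -0.57 to -0.50 for helicase activation. With the bases before the start alone, 25.7% of the 35 genes of the set with a window held E2F letters.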
